A study of Mus musculus with 18 samples.

Results

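Satellite repeats are short units of DNA repeated head to tail in long arrays. In the mouse the major satellite, listed as GSAT_MM, makes up the pericentromeric heterochromatin, a region packed with the histone mark H3K9me3 and the protein HP1 and mostly silent. RNA copied from satellite arrays is usually scarce and is known to vary with cell state. The mm10 assembly represents most of the centromeric arrays as gaps, so that reads of satellite RNA can be placed only on the copies it holds. The 5 repeats described here are GSAT_MM, SYNREP_MM, MMSAT4 and MurSAT1, which the tables place in the class Satellite, and MurSatRep1, which they place in the class Unknown. They were taken by repeat name and are 5 of the 1365 rows of each table, and all 5 names were found in every table. A row stands for all genomic copies of a repeat together. The files give no sequence or function for SYNREP_MM, MMSAT4, MurSAT1 or MurSatRep1.

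The libraries came from mouse embryonic stem cells (ESCs) in 2i medium, from bone-marrow-derived macrophages grown with M-CSF, and from neuronal progenitor cells (NPCs) kept in N2B27 medium with EGF and FGF. In each cell type 3 libraries were from cells treated for 24 h with NVP-AUY922, which blocks HSP90, a chaperone that helps many regulatory proteins fold, and 3 from untreated cells, which makes 18 libraries in 6 groups. ESCs received NVP-AUY922 at 100 nM, macrophages at 500 nM and NPCs at 50 nM. The labels give the strain background of ESCs and NPCs as 129S1/CASTEiJ and that of macrophages as BALBC/C57BL6, and effects of cell type, dose and (in macrophages) strain cannot be told apart. RNA was treated with DNase and sequenced as stranded poly(A) RNA, so RNA without a poly(A) tail is depleted. The tables hold repeats and no genes, and the cell types could not be checked against marker genes. Whether replicates came from separate cultures or animals is not in the labels. The p-values then cover only the spread among the libraries, and that spread may be technical.

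The data are 3 tables of the authors' own comparison, 1 for each cell type, with no values per library. For each row they give a base mean, which is the normalised read count averaged over libraries, and a log2 fold change between treated and untreated cells with its standard error (SE). Errors after ± are these SEs, and 95% intervals were computed from them. Which group stands on top of the fold change is not stated in them. A value is therefore only said to be on the positive or negative side, with no claim that the side means more or less RNA in treated cells. It is also not known whether the sides mean the same in all 3 tables. In these bulk samples, fewer cells of a type and less RNA per cell cannot be told apart.

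Satellite reads were spread very unevenly over the 5 rows. In ESCs, MMSAT4 had a base mean of 49928 and MurSatRep1 one of 52656 in the authors' deposited table, which ranked them 18th and 16th of the 1365 rows. GSAT_MM had a base mean of 392 and SYNREP_MM one of 255 in the authors' deposited table for ESCs. MurSAT1 had only 16.1 there. Such reads are not a level per copy, since they also depend on how many copies a repeat has and how long these are.

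In macrophages and NPCs the same 2 rows held nearly all of the members' reads. MMSAT4 had a base mean of 4162 in macrophages and 4431 in NPCs, and MurSatRep1 had 5587 and 6214, in the authors' deposited tables. GSAT_MM was sparse in both, with 6.96 in macrophages and 2.28 in NPCs in the authors' deposited tables. SYNREP_MM had a base mean of 0.359 in macrophages and 1.51 in NPCs in the authors' deposited tables. MurSAT1 was listed at 0 in macrophages and had 0.475 in NPCs in the authors' deposited tables.

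The 3 tables were normalised separately, so base means cannot be set against each other. As a share of the summed base means of its own table, GSAT_MM made up 0.0102% of repeat reads in the ESC table, 0.00035% in that of macrophages and 0.00011% in that of NPCs. For MMSAT4 the share was 1.30% (ESCs), 0.209% (macrophages) and 0.213% (NPCs). MurSatRep1 made up 1.37%, 0.281% and 0.298% in the same order of cell types. Thus all 3 of these repeats took their largest share in ESCs. The order of macrophages and NPCs differed between them. These shares have no error, since the tables hold no value per library, and they also move with the other rows of a table. Each share also pools treated and untreated libraries, with a different dose in each cell type, so it is not a level of untreated cells. The ESC share of GSAT_MM rests on a row with no p. Its SE there was above those of all 50 rows nearest to it in base mean. In the ratio of MMSAT4 to MurSatRep1 base means within a table, a scale common to all its libraries cancels. The ratio was 0.948 for ESCs, 0.745 for macrophages and 0.713 for NPCs.

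In ESCs all 5 named rows lay on the negative side, and the 2 that carried a test both passed it. The class Satellite as a whole was not uniform. Of its other rows, IMPB_01 lay at 0.11 ± 0.07 and ZP3AR at 0.12 ± 0.10, on the positive side, and neither passed. CENSAT_MC, with a base mean of 0.171, lay at -0.04. Of all tested ESC rows 49.6% were negative. MurSatRep1 lay at -0.50 ± 0.07 with an interval of -0.64 to -0.36, a 1.41-fold difference between the groups, and its DESeq2 adjusted p was 1.251e-10 in the authors' deposited table. MMSAT4 lay at -0.35 ± 0.08 with an interval of -0.50 to -0.19, a 1.27-fold difference, and its DESeq2 adjusted p was 1.125e-04 in the authors' deposited table. Among all 1132 rows with an adjusted p in ESCs, 22.2% were called at 0.05, 12.0% on the negative and 10.2% on the positive side. Among the 319 of these whose base mean reached 1000, where both repeats lie, 32.0% were called and 20.1% were called on the negative side. The sizes were moderate. Of the 1132 tested rows, 174 had a larger absolute log2 fold change than MurSatRep1 and 306 a larger one than MMSAT4. The median over the 2 tested members was -0.42, against 0.0019 over all tested rows.

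GSAT_MM, SYNREP_MM and MurSAT1 had a fold change in ESCs but neither a p nor an adjusted p. GSAT_MM lay at -0.44 ± 0.29 with an interval of -1.01 to 0.13 in the authors' deposited table. SYNREP_MM lay at -0.36 ± 0.22 with an interval of -0.78 to 0.07 in the authors' deposited table. MurSAT1 lay at -0.34 ± 0.22 with an interval of -0.77 to 0.09 in the authors' deposited table. All 3 intervals include 0. Of 1345 ESC rows above 0, only 4 lacked a p, and these 3 satellites were among them. The lowest base mean with an adjusted p in this table was 7.39, and all 3 rows had more reads than that. By default DESeq2 withholds the p of a row in which the count of a library is extreme by Cook's distance. Whether that is why it is missing here was not tested, as no count per library is given.

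**Figure D1:**
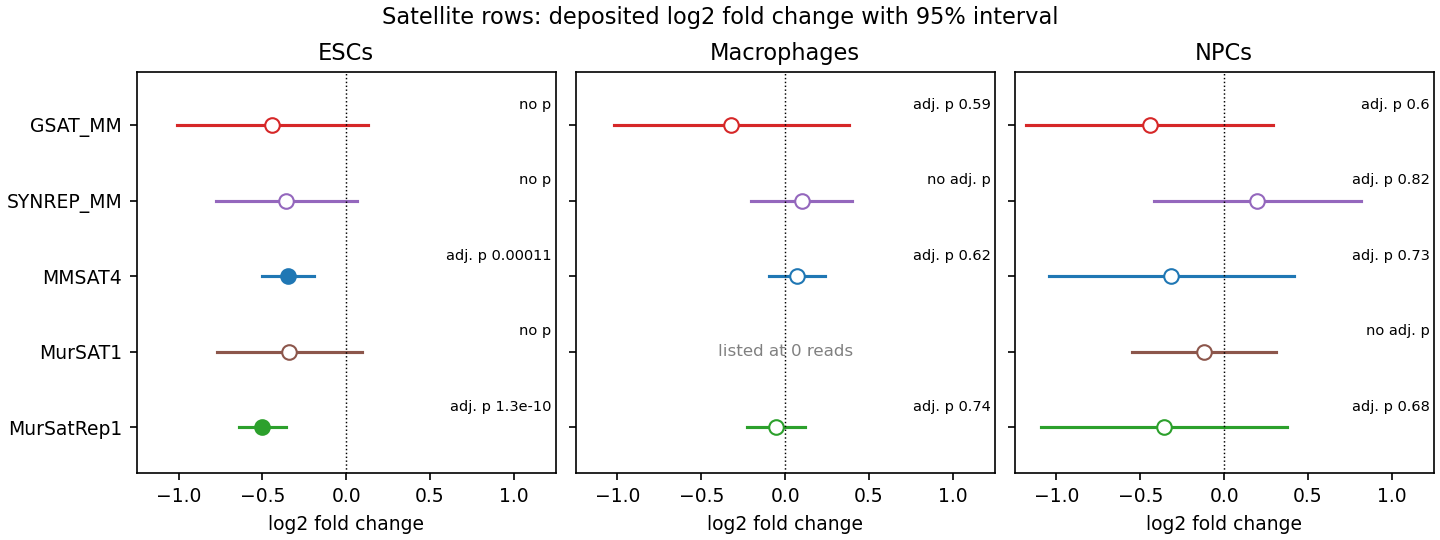
Log2 fold change (x axis) of the 5 satellite rows (y axis) in ESCs, macrophages and NPCs; lines are 95% intervals, filled points have an adjusted p under 0.05, and open points do not or are untested. All 5 rows lie left of 0 in ESCs, where MMSAT4 and MurSatRep1 alone are filled, and the intervals of both are far wider in NPCs than in ESCs or macrophages.

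In macrophages no satellite row passed, and the abundant pair lay close to 0. MMSAT4 lay at 0.07 ± 0.08 with an interval of -0.09 to 0.23, and its DESeq2 adjusted p was 0.616 in the authors' deposited table. MurSatRep1 lay at -0.05 ± 0.09 with an interval of -0.23 to 0.12, and its DESeq2 adjusted p was 0.737 in the authors' deposited table. GSAT_MM, with few reads, lay at -0.32 ± 0.36 with an interval of -1.02 to 0.38 in the authors' deposited table, where its DESeq2 adjusted p was 0.588. SYNREP_MM lay at 0.10 ± 0.16 with a p of 0.530 from DESeq2 and no adjusted p in the authors' deposited table, and MurSAT1, at 0, had no value. So 0 of 3 tested members were called, where 25.8% of all 1255 tested rows were, and 0 had an unadjusted DESeq2 p under 0.05. The median over the 3 was -0.05, against -0.01 over all tested rows.

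In NPCs 4 of the 5 rows lay on the negative side and none passed. The errors of MMSAT4 and MurSatRep1 were wide for rows with so many reads. GSAT_MM, SYNREP_MM and MurSAT1 had base means of only 2.28, 1.51 and 0.475, so their sides carry little weight. MMSAT4 lay at -0.31 ± 0.37 with an interval of -1.05 to 0.42, and its DESeq2 adjusted p was 0.734 in the authors' deposited table. MurSatRep1 lay at -0.36 ± 0.38 with an interval of -1.09 to 0.38, and its DESeq2 adjusted p was 0.681 in the authors' deposited table. Both intervals include 0. GSAT_MM lay at -0.44 ± 0.38 with an interval of -1.18 to 0.29 in the authors' deposited table, where its DESeq2 adjusted p was 0.599. SYNREP_MM, the member on the positive side, lay at 0.20 ± 0.31 in the authors' deposited table, where its DESeq2 adjusted p was 0.818. MurSAT1 lay at -0.12 ± 0.22 with a p of 0.578 from DESeq2 and no adjusted p in the authors' deposited table. Of 4 tested members 0 were called, where 11.8% of all 1249 tested rows were, and 0 had an unadjusted DESeq2 p under 0.05. The median over the 4 was -0.34, against 0.0009 over all tested rows, of which 49.9% were negative.

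The rows without an adjusted p in macrophages and NPCs were those with the fewest reads. SYNREP_MM in macrophages, at 0.359, was under the lowest base mean with an adjusted p there, 0.511. MurSAT1 in NPCs, at 0.475, was likewise under the lowest of that table. SEs of such sparse rows are not a sign of precision. The median SE of the 62 NPC rows with a base mean above 0 and under 1 was 0.22, against 0.42 for the 129 rows between 5 and 15. The same fall towards the sparsest rows was present in ESCs (0.15 and 0.34) and macrophages (0.20 and 0.35). The fold changes of rows under 1 were also small, at most 0.25 (ESCs), 0.42 (macrophages) and 0.37 (NPCs) in absolute log2. The tables do not state whether fold changes were shrunken towards 0, and the values and intervals of sparse rows may lie nearer 0 than their reads would put them. If they were shrunken, all intervals and differences between cell types given here rest on shrunken values and SEs. This was not tested.

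The SEs of the satellite values were unlike those of other rows with similar reads in some tables. In ESCs the SE of GSAT_MM, 0.29, was 2.52 times the median of the 50 rows nearest to it in base mean, and all 50 had a smaller one. That of SYNREP_MM, 0.22, was 1.62 times its neighbours' median, and again all 50 were smaller. The SE of MurSAT1 was below that of its neighbours, at 0.695 times their median. With a base mean of 16.1 and no p, this is not a sign of greater precision. MMSAT4 and MurSatRep1 were like their neighbours in ESCs, at 1.07 and 0.985 times the median.

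In NPCs the wide SEs were those of the abundant pair. GSAT_MM and SYNREP_MM were at 0.963 and 0.917 times their neighbours' median there. With base means of 2.28 and 1.51, these ratios cannot be set against those in ESCs. MMSAT4 had an SE 2.25 times and MurSatRep1 one 2.35 times the median of their 50 nearest rows, of which 48 and 49 had a smaller SE. Of the 247 tested NPC rows whose base mean reached 1000, only 6 had a larger SE than MMSAT4 and 4 a larger one than MurSatRep1. The 4 rows, looked up after the values were seen, were LSU-rRNA_Hsa, SSU-rRNA_Hsa, ERVB7_2-LTR_MM and Lx3B. The first pair are ribosomal RNA, which poly(A) selection should remove. LSU-rRNA_Hsa lay at -0.73 ± 0.40 and SSU-rRNA_Hsa at -0.53 ± 0.39 in NPCs in the authors' deposited table, and their DESeq2 adjusted p there were 0.301 and 0.525. LSU-rRNA_Hsa made up 3.17% of repeat reads in NPCs, 3.91% in macrophages and 0.979% in ESCs, as a share within each table. Its SE was also wide in macrophages, at 7.15 times the median of its neighbours, where that of MMSAT4 was 1.17 times and that of MurSatRep1 1.56 times theirs. In ESCs LSU-rRNA_Hsa had an SE of 0.22 against a median of 0.07 among its neighbours, and SSU-rRNA_Hsa one 2.81 times its neighbours' median, while those of MMSAT4 and MurSatRep1 were near theirs. The third rRNA row, 5S, had an SE of 0.918 to 0.998 times the median of its neighbours in the 3 tables. The part of residual ribosomal RNA in the satellite values was not tested.

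**Figure D2:**
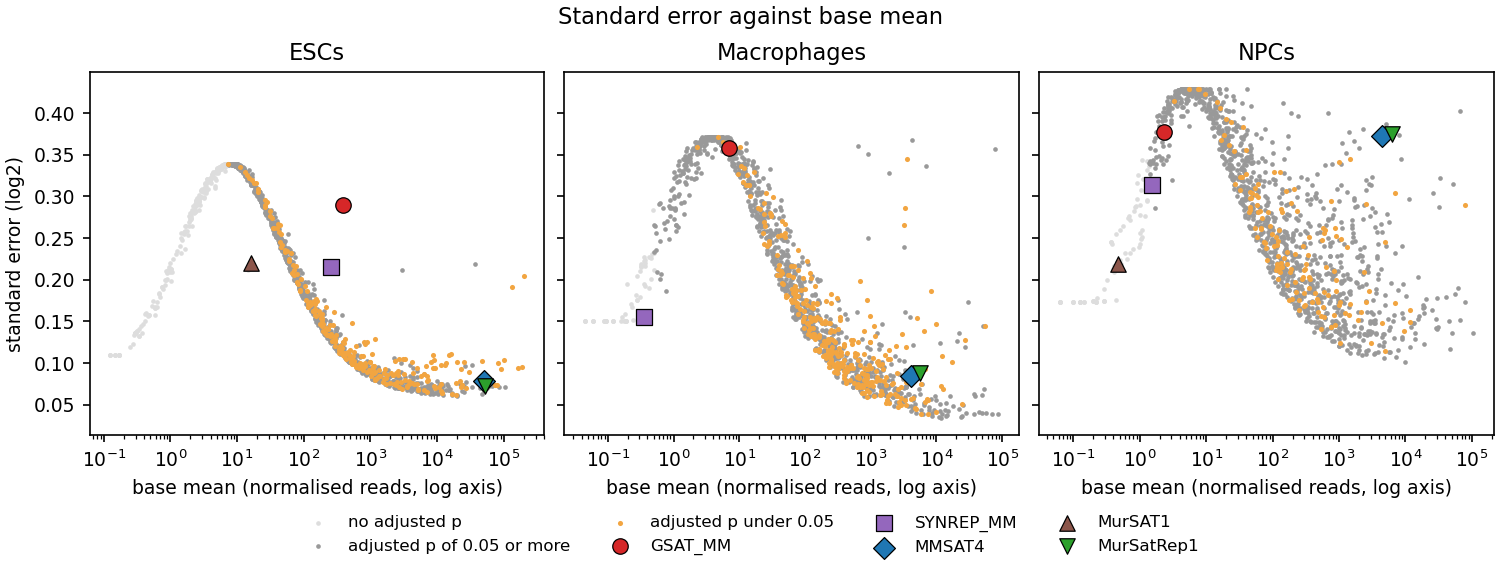
Standard error of the log2 fold change (y axis) against base mean (x axis, log scale) for every row above 0 in ESCs, macrophages and NPCs, with the 5 satellite rows as large symbols. GSAT_MM and SYNREP_MM stand above the rows of similar base mean in ESCs, MMSAT4 and MurSatRep1 stand above most rows of similar base mean in NPCs, and the SE falls again among the rows with the fewest reads.

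The differences between cell types were tested for the repeats with an adjusted p in both tables of a pair, with a two-sided normal test on the difference of the log2 fold changes, adjusted over all such rows. Taking the tables as oriented alike, both abundant repeats differed between ESCs and macrophages. MurSatRep1 lay at -0.50 in ESCs and -0.05 in macrophages, a difference of -0.45 ± 0.11 with an interval of -0.67 to -0.22 and an adjusted p of 9.264e-04 by the normal test on log2 values. MMSAT4 lay at -0.35 in ESCs and 0.07 in macrophages, a difference of -0.42 ± 0.11 with an interval of -0.64 to -0.19 and an adjusted p of 0.00237 by the same test. Of 1124 rows tested in both, 23.7% were called, 11.8% on the negative side. If 1 of the tables runs the other way, MurSatRep1 differs by -0.55 with an adjusted p of 1.428e-05. MMSAT4 then differs by -0.28 and misses the threshold, with an adjusted p of 0.0556, where 27.9% of rows were called. Here and below, such values take the table of the cell type named second in the difference as turned. If the other table is turned instead, their signs and intervals are reversed.

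**Figure D3:**
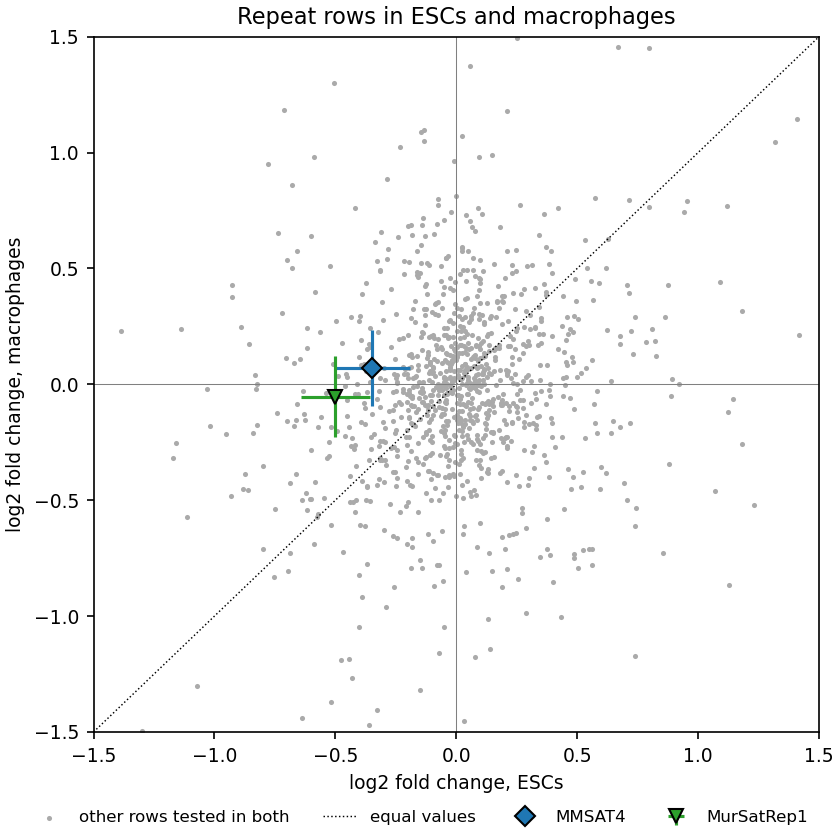
Log2 fold change in ESCs (x axis) and macrophages (y axis) of the 1124 rows tested in both, with 95% intervals for MMSAT4 and MurSatRep1; 27 rows beyond 1.5 are outside the axes and the dotted line marks equal values. Both repeats lie left of 0 in ESCs and near 0 in macrophages, above the line of equal values.

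No member passed in the comparisons with NPCs, and their values depended on how the tables are oriented. With the tables oriented alike, ESCs minus NPCs gave -0.03 ± 0.38 for MMSAT4, with an interval of -0.78 to 0.71, and -0.14 ± 0.38 for MurSatRep1, with an interval of -0.89 to 0.61. The adjusted p were 0.978 and 0.893 by the normal test, and 12.6% of 1126 rows were called. With 1 table turned, MMSAT4 differed by -0.66 with an interval of -1.41 to 0.09 and an adjusted p of 0.261 by the normal test. MurSatRep1 then differed by -0.86, with an interval of -1.61 to -0.11 that leaves out 0, but its adjusted p over all rows was 0.118, where 16.2% of rows were called. Oriented alike, NPCs minus macrophages gave -0.38 ± 0.38 for MMSAT4 and -0.31 ± 0.39 for MurSatRep1, with adjusted p of 0.652 and 0.730. GSAT_MM, tested in both of these tables, differed by -0.12 ± 0.52 with an interval of -1.14 to 0.90 and an adjusted p of 0.935. Of 1222 rows tested there, 12.4% were called. With 1 table turned, the differences were -0.24 for MMSAT4, -0.41 for MurSatRep1 and -0.77 for GSAT_MM, with adjusted p of 0.750, 0.542 and 0.352 by the normal test, where 19.9% of rows were called.

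The class Satellite has 7 rows, of which 3 are not among the 5 described, and none of these 3 was called in any table. IMPB_01 lay at 0.11 ± 0.07 (ESCs), 0.27 ± 0.16 (macrophages) and -0.29 ± 0.16 (NPCs), and its DESeq2 adjusted p in the authors' deposited tables were 0.270, 0.209 and 0.317. ZP3AR lay at 0.12 ± 0.10, 0.0036 ± 0.07 and -0.25 ± 0.27 in the same order, and its DESeq2 adjusted p in the authors' deposited tables were 0.454, 0.984 and 0.697. CENSAT_MC, listed as centromeric, had a base mean of 0.171 in ESCs and was listed at 0 in macrophages and NPCs in the authors' deposited tables. Of the class, 0 of 3 tested rows in ESCs were positive calls and 1, MMSAT4, was a negative call. Of 4 tested rows in macrophages and 5 in NPCs, 0 were called by DESeq2 and 0 had an unadjusted p under 0.05. Over all tested rows the called share was 22.2% in the ESC table, 25.8% in that of macrophages and 11.8% in that of NPCs, so that 0 or 1 call among 3 to 5 rows is near the background. The median over the tested rows of the class was 0.11 (ESCs), 0.04 (macrophages) and -0.29 (NPCs), against 0.0019, -0.01 and 0.0009 over all tested rows.

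**Figure D4:**
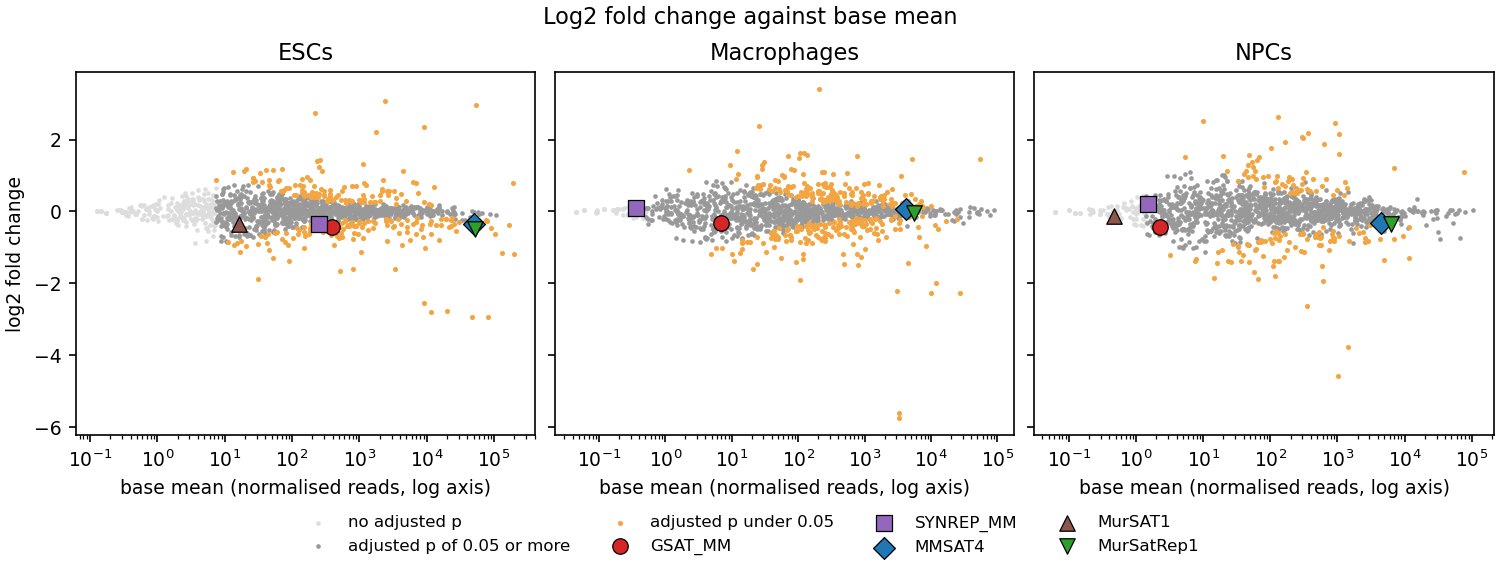
Log2 fold change (y axis) against base mean (x axis, log scale) for every row above 0 in ESCs, macrophages and NPCs, with the 5 satellite rows as large symbols and rows with an adjusted p under 0.05 in orange. The satellite rows lie within 0.50 of 0 in every table, well inside the range of all rows, and MMSAT4 and MurSatRep1 lie at the abundant end.

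The rows whose values were most like those of MMSAT4 and MurSatRep1 over the 3 cell types were sought among 1121 rows tested in all 3 tables, by Euclidean distance between log2 fold changes. This distance does not depend on how a table is oriented. Nearest to MMSAT4 was L1MdFanc_II, a part of a mouse L1 element, at a distance of 0.0635. In the authors' deposited tables it lay at -0.36 ± 0.07 (ESCs), 0.01 ± 0.07 (macrophages) and -0.34 ± 0.18 (NPCs). UCON71_Crp, of the class Unknown, and Charlie15b, a hAT DNA transposon, followed at distances of 0.140 each. For MurSatRep1 the nearest were UCON71_Crp at 0.0636, the ERVL long terminal repeat LTR53 at 0.127 and the L1 row L1MEa at 0.156. MMSAT4 and MurSatRep1 were 0.202 apart. MMSAT4 was thus the 7th nearest row to MurSatRep1, and MurSatRep1 the 19th nearest to MMSAT4. Besides MMSAT4, MurSatRep1 and L1MdFanc_II, the rows named in this search had base means of 232 or less in every table. Their SEs were larger than those of MMSAT4 and MurSatRep1 in ESCs and macrophages. In NPCs only LTR53, at 0.41, had a larger SE than these repeats, whose SEs there were 0.37 and 0.38. All distances given are smaller than those NPC SEs, so the order of the nearest rows is not resolved.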

How the data were processed

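Poly(A) RNA was sequenced from 18 libraries, 3 per group. The submitters' processing notes name mm10 and, without roles, DESeq2, featureCounts, TopHat2 2.0.13, Bowtie2, Trim Galore and deepTools. Other versions, strand use in counting and the assignment of multi-mapping reads were not given. Related repeats may share reads, and reads of genes that hold a copy may enter a row. Per the file headers, the authors deposited for each row a base mean (a signal: mean normalised counts), a log2 fold change with its SE on the log2 scale, a Wald score, a p-value and an adjusted p-value. The score equalled fold change over SE, within a relative 1e-06, in 1345, 1306 and 1326 rows of ESCs, macrophages and NPCs. The tables give no depth per library.

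Calls are the authors' adjusted p under 0.05. Intervals, differences between cell types (Benjamini-Hochberg adjusted) and distances were computed with Python 3.11.15, scipy 1.17.1 and pandas 2.3.3. The difference test was run on simulated data with independent normal errors of the deposited SEs. That setting cannot show how the test behaves with 3 libraries per group or with rows that share reads. Alternatives were other thresholds, adjustments, centring and orientation. Named rows are the 5 repeats, other called satellites (none) and the 3 rows nearest to each repeat tested in all tables; IMPB_01, ZP3AR, CENSAT_MC, C573_MM, the rRNA rows, ERVB7_2-LTR_MM and Lx3B were added after their values were seen. The members and lists were chosen with earlier results of these data known.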

Additional observations from a re-analysis of the deposited data

Results flagged for a closer look

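MurSatRep1 and MMSAT4 were picked out because their log2 fold changes differed between ESCs and macrophages in a test of the difference itself. With the tables taken as oriented alike, the difference, ESCs minus macrophages, was -0.45 for MurSatRep1 and -0.42 for MMSAT4, with adjusted p of 9.264e-04 and 0.00237 by the normal test on log2 values. With 1 table turned, MurSatRep1 differed by -0.55 with an adjusted p of 1.428e-05, and MMSAT4 by -0.28 with an adjusted p of 0.0556, which misses the threshold. Of all 1124 rows in this test 23.7% were called, and 27.9% with 1 table turned. MurSatRep1 and MMSAT4 share libraries and may share reads, so their results are not independent. Dose and strain differ between the cell types as well, and cannot be told apart from cell type.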

How the results depend on the processing

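Of 153 recomputed values, 149 kept their direction and side of the threshold, or stayed within 1.5 times for counts and error ratios. The negative calls of MMSAT4 and MurSatRep1 in ESCs held with adjustment over all rows with a p or over rows whose base mean reached 50, and with centring. Their deposited adjusted p were also under 0.01, while a threshold of 0.1 could not undo a call. With a p computed from the deposited statistic, an alternative chosen after seeing the data, GSAT_MM, SYNREP_MM and MurSAT1 in ESCs stayed uncalled. In macrophages and NPCs this alternative could change nothing, as no row there had a fold change without a p. With 1 table turned, the ESC and macrophage difference of MMSAT4, -0.28, missed the threshold, while that of MurSatRep1, -0.55, still passed it. At a threshold of 0.01, 95 rows in place of 147 were called in NPCs, and 91 in place of 151 for NPCs minus macrophages, where turning 1 table gave 243. Turning 1 table also moved the NPC differences, ESCs minus NPCs to -0.66 for MMSAT4 and -0.86 for MurSatRep1, with no call gained. No paired analysis was possible because the tables hold no values per library, and for the same reason no replicate could be left out. GSAT_MM, SYNREP_MM and MurSAT1 had base means of 6.96 or less in macrophages and NPCs, which limits what their values there can show; no detection limit was computed.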

Other observations

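The fourth ESC row with a fold change and no p was C573_MM, of the class Other, at -0.30 ± 0.21 and a base mean of 14.4 in the authors' deposited table. The ratio of GSAT_MM to SYNREP_MM reads was 1.54 in ESCs and 1.51 in NPCs, where the NPC ratio rests on base means of only 2.28 and 1.51. In macrophages SYNREP_MM was at 0.359, too few reads for the ratio to be read.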
